A study of Mus musculus with 12 samples.

Results

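The coagulation and fibrinolysis genes described here are F3, Tfpi, Thbd, Procr, Vwf, Thbs1, Plat, Plau and Plaur, 9 genes chosen by name. All 9 were present among the 33615 gene symbols of the table, of which 25622 had counts. All 9 were also among the 15952 genes kept for testing. Their RNA was measured in bulk mouse heart tissue, with 12 sequencing libraries split evenly over 3 groups (n = 4). Sham hearts had the operation without ischemia. I/R hearts were made ischemic for 30 min and then reperfused for 2 h. I/R + ML264 hearts were injured in the same way and treated with ML264, a compound used as an inhibitor of the transcription factor KLF5. The labels give no strain, sex or age, no dose, route or time of ML264, and no statement that the libraries are from separate animals. The p-values therefore measure the spread between these libraries, which may be technical. No sham group with ML264 is among the 12 libraries, so the compound was measured only after injury.

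Tissue factor, encoded by F3, starts coagulation by binding factor VIIa, and tissue factor pathway inhibitor, encoded by Tfpi, blocks that step. On the endothelial surface, thrombomodulin (Thbd) and the endothelial protein C receptor (Procr) turn thrombin towards activation of the anticoagulant protein C. Von Willebrand factor (Vwf) and thrombospondin 1 (Thbs1) are large secreted adhesive proteins that platelet granules also hold. Clot lysis depends on plasmin, which tissue-type (Plat) and urokinase-type (Plau) plasminogen activators make from plasminogen, with Plaur as the cell surface receptor of the latter. After coronary reperfusion these systems are studied because microvascular clots and leukocyte plugs can keep tissue from being perfused.

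Levels are given as counts per 1 M (CPM), scaled to the total of the tested genes in each library times its TMM factor. TMM factors adjust library totals for differences in RNA composition. Group values are given as mean ± SD (n = 4). Differences are log2 fold changes ± SE from edgeR's quasi-likelihood test, and a gene was called when its Benjamini-Hochberg adjusted p over all genes was under 0.05. Levels are not compared between genes, since CPM does not account for transcript length.

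Library totals were 22.3 to 29.9 M estimated counts, of which 35.2 to 41.1% came from mitochondrially encoded genes. Markers of cardiomyocytes and of endothelium were present in every library, with summed levels of at least 81770 CPM (8 genes) and 432 CPM (10 genes). Y-linked transcripts, represented by Ddx3y, were at 38.8 to 52.0 CPM in the 4 Sham libraries and in I/R 2 and 3 and I/R + ML264 3 and 4. They were at 0.106 to 0.484 CPM in I/R 1 and 4 and I/R + ML264 1 and 2. Each injured group thus held libraries with and without Y-linked transcripts, which a single animal could not give, so its spread was not technical alone. All Sham libraries had Y-linked transcripts, so their presence was partly confounded with injury. Arntl, a gene of the circadian clock, was high in Sham 2, Sham 3 and I/R 1, at 3.39 to 3.94 log2 CPM, against at most 1.74 in the other 9 libraries. I/R + ML264 library 2 lay apart from the others on the second axis of a multidimensional scaling of all genes. The results were therefore also computed with the Y-linked or the Arntl level as a covariate and within the 8 libraries that had Y-linked transcripts.

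After I/R, 1 of the 9 genes was called, Plaur, which was higher than in Sham. Across all genes tested, 7.74% were called in this comparison and 4.58% were called higher, so with 9 genes the number called was close to the background. Libraries of the 2 groups did not overlap in TMM-scaled CPM for 3 members, Thbs1, Plat and Plaur, against 15.8% of all genes. The unadjusted p by edgeR was under 0.05 for 5 members, against 23.2% of all genes. DESeq2 called 4 members, against 10.0% of all genes it tested, and limma voom called 3, against 9.01%. The fold change was above 0 for 8 of the 9, and the median over all genes was 0.002. Between I/R + ML264 and I/R, none of the 9 genes was called by edgeR, against 0.0502% of all genes. DESeq2 and limma voom also called none, against 0.951% and 0.0564% of all genes. Plat alone had an unadjusted p under 0.05 in that comparison, against 10.4% of all genes. No member had groups that did not overlap, against 5.61% of all genes. Between I/R + ML264 and Sham, edgeR called none, against 0.288% of all genes, while 2 members, Thbs1 and Plaur, had an unadjusted p under 0.05, against 13% of all genes. Those 2 genes were called by DESeq2, which called 2.26% of all genes, and not by limma voom, which called 0.169%. They were also the 2 members whose groups did not overlap, against 7.37% of all genes.

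**Figure D1:**
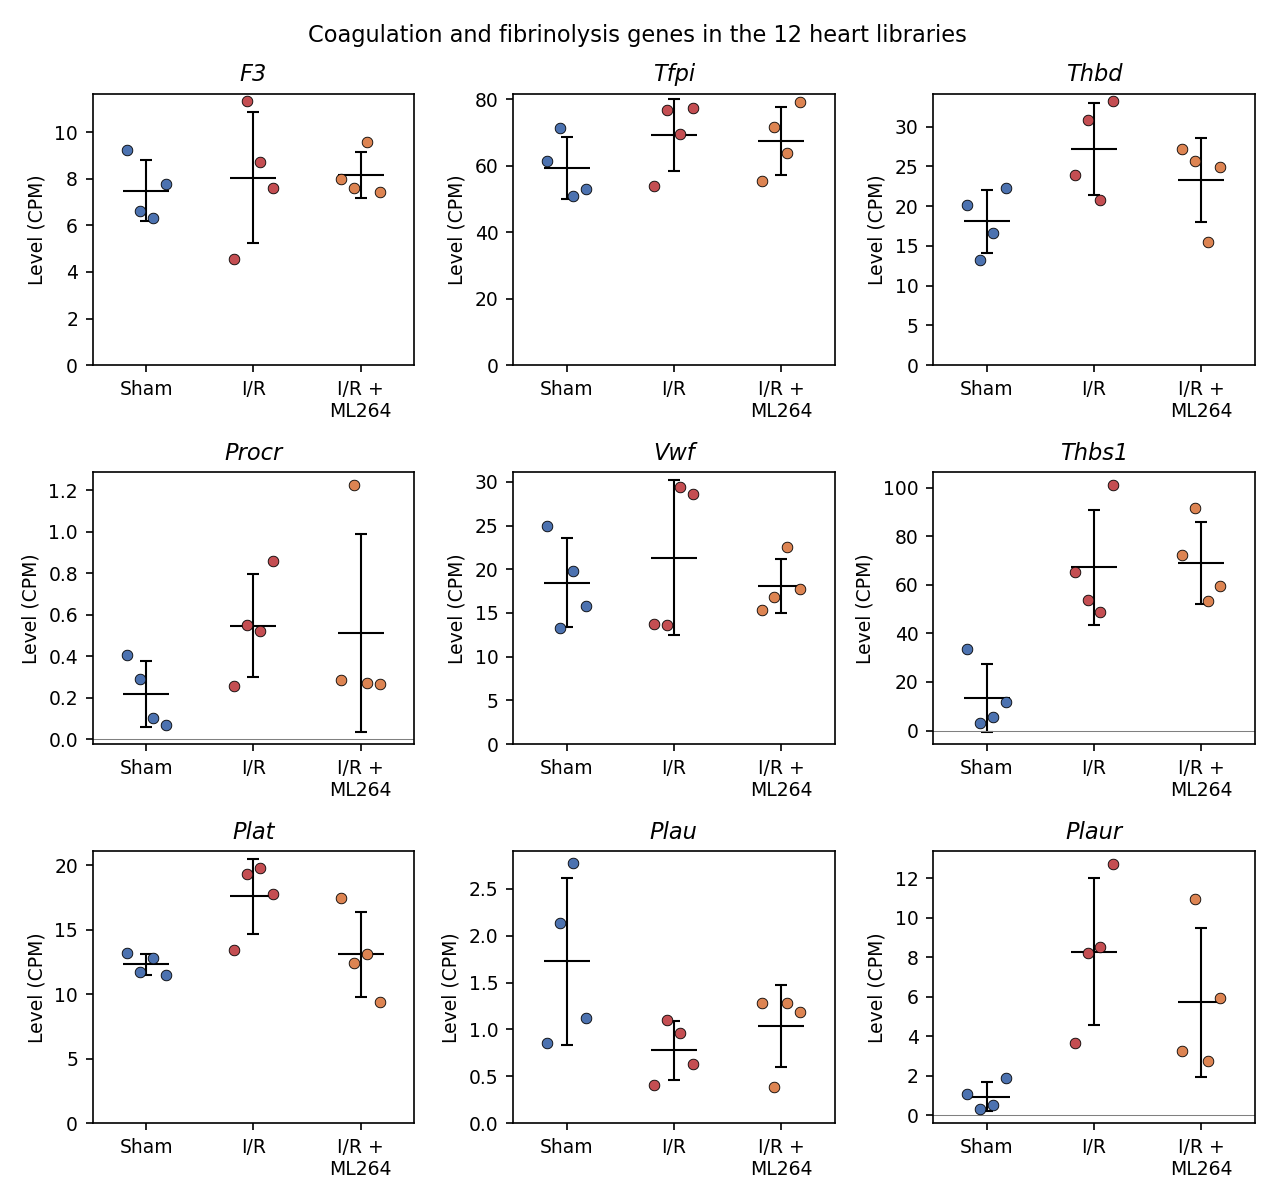
Level of each of the 9 genes in each library (points, CPM, linear axis of its own for each gene), by group, with the group mean and SD as a bar and whiskers (n = 4). Plaur and Thbs1 lay higher in all 8 injured libraries than in the 4 Sham libraries, and Plat lay higher in I/R than in Sham.

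Promoter sequence is shown for Plaur, the member called after I/R, and for F3, whose window held matches to the same motifs while its level did not differ by the test. Both stretches are the bases just before the annotated start, on the plus strand of GRCm38.p6 from RefSeq, written 5′ to 3′. Capitals mark matches to the AP-1 motif TGANTCA and to the KLF/SP motif CCNCNCCC on either strand, and matches of the KLF/SP motif overlap each other. The Plaur stretch is chr7:24462233-24462482 and the F3 stretch is chr3:121723287-121723536.
Plaur: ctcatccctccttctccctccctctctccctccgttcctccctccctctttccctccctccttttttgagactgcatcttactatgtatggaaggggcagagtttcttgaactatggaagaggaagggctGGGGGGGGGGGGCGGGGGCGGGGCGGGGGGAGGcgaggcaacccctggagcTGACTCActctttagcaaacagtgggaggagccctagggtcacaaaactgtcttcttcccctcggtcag
F3: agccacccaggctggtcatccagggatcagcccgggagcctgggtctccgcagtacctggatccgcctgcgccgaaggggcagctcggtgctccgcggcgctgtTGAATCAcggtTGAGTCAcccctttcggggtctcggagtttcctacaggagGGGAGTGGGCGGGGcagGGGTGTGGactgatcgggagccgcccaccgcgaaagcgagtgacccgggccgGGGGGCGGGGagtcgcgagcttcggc
In Plaur, AP-1 matched once, starting at position -69 from the start site, and KLF/SP matched at 11 overlapping positions in a G-rich run that began at position -120. In F3, AP-1 matched at positions -146 and -135 and KLF/SP at 5 positions. Of 32851 RefSeq windows of the same length (250 bases before to 50 after a start), 7.81% held AP-1 and 49.5% held KLF/SP. Windows were found for 4 members. That of Procr held 1 AP-1 and 3 KLF/SP matches. Of the pair of Tfpi windows, neither held AP-1 and 1 held KLF/SP. The NF-kB motif (8.46% of all windows) and the CRE motif TGACGTCA (1.79%) matched in none of these 5 windows. These matches describe letters only, and binding was not measured.

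Plaur, the urokinase receptor, lies on chromosome 7 at 24462484 to 24475968 (GRCm38, plus strand). Its level was 1.09, 0.29, 0.49 and 1.90 CPM in Sham 1 to 4. In I/R 1 to 4 it was 3.66, 8.22, 8.53 and 12.7 CPM, and in I/R + ML264 1 to 4 it was 3.23, 10.9, 2.73 and 5.95 CPM. Every injured library was above every Sham library, and the range of the ML264 libraries covered most of that of I/R. Plaur rose from 0.941 ± 0.725 CPM in Sham to 8.28 ± 3.71 CPM in I/R (SD, n = 4), a log2 fold change of 3.14 ± 0.66 (edgeR, adjusted p = 0.021). The group sums were 100 counts in Sham and 861 in I/R. Leaving out each library in turn gave log2 fold changes of 2.82 to 3.78, the highest without Sham 4 (adjusted p = 0.0245). The call was lost without Sham 2 (2.82, adjusted p = 0.0529), without Sham 3 (2.91, adjusted p = 0.0665) and without I/R 4 (2.85, adjusted p = 0.0526). It was also lost with Y-linked transcripts as a covariate (3.02, adjusted p = 0.0669) or with Arntl as a covariate (2.47, adjusted p = 0.0547). Within the 8 libraries with Y-linked transcripts it was 3.15 (adjusted p = 0.0362), and over all 25 alternatives the adjusted p ran from 0.000105 to 0.0669 while the fold change stayed above 0.

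With ML264, Plaur averaged 5.71 ± 3.76 CPM (SD, n = 4). The log2 fold change against I/R was -0.53 ± 0.57 with a 95% interval of -1.80 to 0.74 (edgeR, adjusted p = 0.798), which covers both a fall and a rise. Leaving out I/R + ML264 library 2, the highest of its group, gave -1.06 (adjusted p = 0.473). Against Sham the fold change was 2.61 ± 0.66 (adjusted p = 0.147 by edgeR and 0.00879 by DESeq2), and 3.25 without Sham 4 (edgeR, adjusted p = 0.199).

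The genes whose levels followed Plaur most closely over the 12 libraries were Zfp36, Csrnp1 and Apold1. Likeness was the root mean square difference of mean-centred log2 CPM among 10400 genes, and it was 0.506, 0.528 and 0.529 for these 3. Zfp36, which encodes an mRNA decay factor, averaged 23.6 ± 20.4 CPM in Sham and 140 ± 65.6 CPM in I/R, with 96.1 ± 28.6 CPM under ML264 (SD, n = 4). Csrnp1 averaged 3.25 ± 2.23, 19.0 ± 1.28 and 13.1 ± 5.81 CPM in the same order. Apold1, an early-response gene of endothelium, averaged 10.8 ± 9.24, 62.2 ± 16.2 and 52.7 ± 19.3 CPM. Among the members, Thbs1 was the nearest to Plaur with 0.757, and Plau was the farthest with 2.19.

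The ligand of the receptor had the only fold change below 0 after I/R among the members. Plau, on chromosome 14 at 20836660 to 20843385, was at 0.86, 2.14, 2.78 and 1.13 CPM in Sham 1 to 4 and at 0.40, 1.10, 0.97 and 0.64 CPM in I/R 1 to 4. It was at 1.28, 0.39, 1.29 and 1.19 CPM in I/R + ML264 1 to 4. Sham 1 lay inside the I/R range, and 3 of the 4 ML264 libraries were above every I/R library. These levels rest on 190, 80 and 108 counts summed over the Sham, I/R and ML264 groups. The log2 fold change was -1.16 ± 0.44 in I/R against Sham (edgeR, adjusted p = 0.119) and 0.41 ± 0.45 with ML264 against I/R (adjusted p = 0.799). Neither was called, and the interval of the second, -0.54 to 1.36, holds no change and a change of either sign. Bulk values cannot tell fewer cells of a type from less RNA per cell, for Plau or for any gene here.

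Plat encodes tissue-type plasminogen activator and lies on chromosome 8 at 22757727 to 22782844. In Sham 1 to 4 it was at 13.2, 11.7, 12.8 and 11.5 CPM, the narrowest spread of the 9 genes relative to the mean in that group. I/R 1 to 4 had 13.4, 19.3, 19.8 and 17.8 CPM, and I/R + ML264 1 to 4 had 17.4, 12.4, 13.1 and 9.39 CPM. I/R 1 was just above the highest Sham library, and of the ML264 libraries only the first was above the lowest of I/R. By library totals without TMM factors, I/R 1 (366 of 28.6 M counts) was below Sham 3 (369 of 26.6 M counts). The lack of overlap between I/R and Sham for Plat thus depended on the scaling. The means were 12.3 ± 0.841 CPM for Sham, 17.6 ± 2.91 CPM for I/R and 13.1 ± 3.31 CPM for I/R + ML264 (SD, n = 4).

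By edgeR, Plat differed by 0.51 ± 0.16 (log2) between I/R and Sham, which was not called (adjusted p = 0.0608). It was called in 8 of 25 alternatives, including DESeq2 (adjusted p = 0.0358), limma voom (adjusted p = 0.0407), the fit without I/R 1 (adjusted p = 0.0298), and the 8 libraries with Y-linked transcripts (0.67, adjusted p = 0.0193). The difference between I/R + ML264 and I/R was -0.42 ± 0.16 with an interval of -0.76 to -0.09 (adjusted p = 0.359), and no alternative called it. Within the 8 libraries with Y-linked transcripts this difference was -0.79 (adjusted p = 0.19), and within the other 4 it was -0.06 (adjusted p = 0.995). Against Sham, the ML264 group differed by 0.09 ± 0.16 (adjusted p = 0.855).

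Thbs1, an adhesive glycoprotein that can activate latent TGF-beta and bind CD36 and CD47, had the most uneven Sham group. It lies on chromosome 2 at 118111876 to 118127133 and overlaps the noncoding gene Gm29233 on the opposite strand, whose reads cannot be told apart in libraries without strand. Sham 1 to 4 held 33.4, 2.93, 5.42 and 11.6 CPM. I/R 1 to 4 held 65.2, 53.6, 49.0 and 101 CPM, and I/R + ML264 1 to 4 held 72.2, 91.5, 53.3 and 59.6 CPM. All 8 injured libraries exceeded Sham 1, the highest of Sham, and the injured groups overlapped each other over most of their ranges. The means were 13.3 ± 13.9, 67.2 ± 23.6 and 69.1 ± 16.9 CPM (SD, n = 4).

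The log2 fold change of Thbs1 in I/R against Sham was 2.35 ± 0.66, with an interval of 0.87 to 3.83 (edgeR, adjusted p = 0.0637), and it was not called. Without Sham 1 it was 3.33 (adjusted p = 0.00844), and it was called as well by DESeq2 (adjusted p = 0.00703) and limma voom (adjusted p = 0.0154). Within the 8 libraries with Y-linked transcripts it was 1.96 (adjusted p = 0.351). With ML264 against I/R the fold change was 0.04 ± 0.61 (adjusted p = 0.988), and its interval of -1.34 to 1.43 leaves room for a change of either sign. Against Sham, ML264 gave 2.39 ± 0.66 (adjusted p = 0.173 by edgeR and 0.0228 by DESeq2), and 3.37 without Sham 1 (edgeR, adjusted p = 0.0344).

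**Figure D2:**
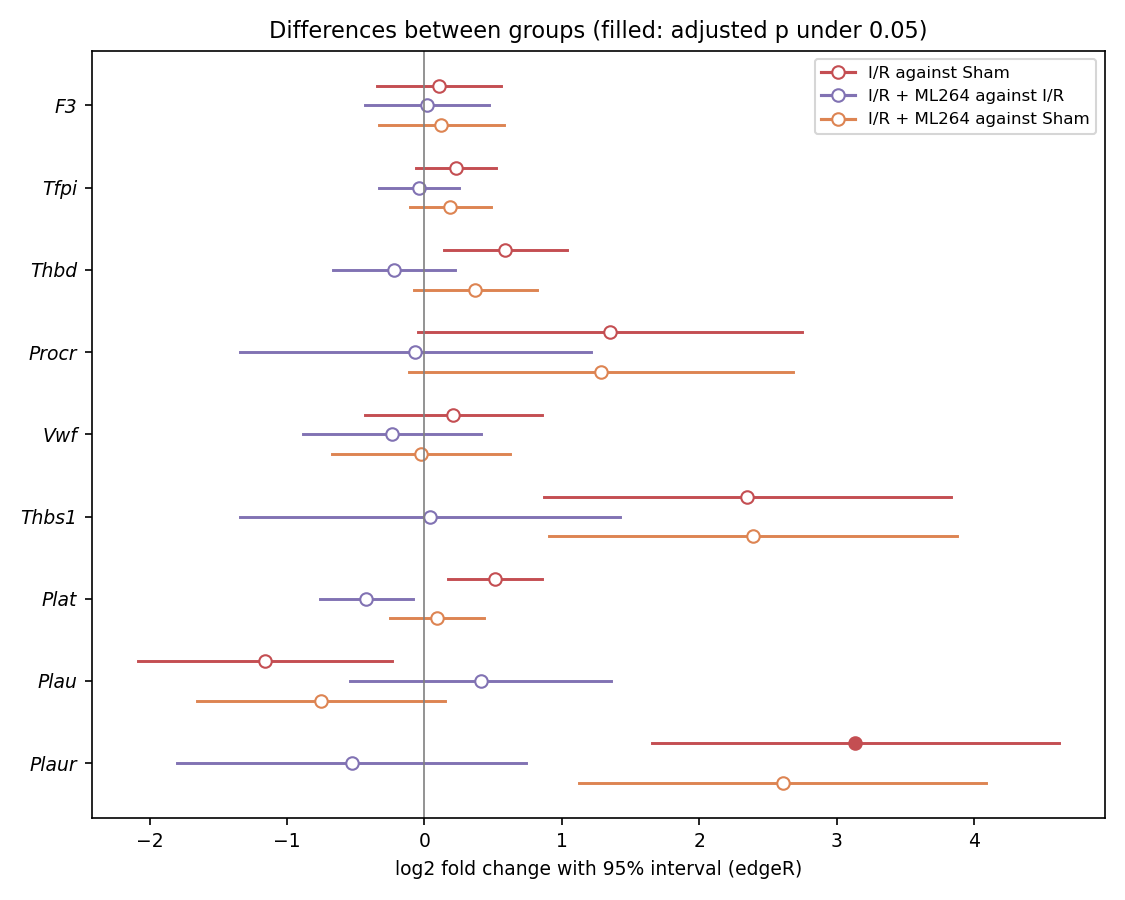
Log2 fold change with its 95% interval (edgeR, one model over 12 libraries) for each of the 9 genes in 3 comparisons; a filled point has an adjusted p under 0.05. Plaur in I/R against Sham is the only filled point, and every interval of I/R + ML264 against I/R spans 0 except that of Plat.

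Vwf, on chromosome 6 at 125546774 to 125686679, split the I/R group. I/R 1 and 2 were at 13.7 and 13.6 CPM and I/R 3 and 4 at 29.4 and 28.6 CPM, while Sham 1 to 4 were at 25.0, 13.3, 19.8 and 15.8 CPM. I/R + ML264 1 to 4 were at 15.3, 16.9, 22.5 and 17.7 CPM, inside the Sham range. The I/R values lay near both ends of that range and beyond its top, so the groups overlapped. The log2 fold change was 0.21 ± 0.29 for I/R against Sham (edgeR, adjusted p = 0.73), -0.24 ± 0.29 with ML264 against I/R (adjusted p = 0.827) and -0.03 ± 0.29 for I/R + ML264 against Sham (adjusted p = 0.979).

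On the initiating side of coagulation, F3 showed no difference past the test. F3 lies on chromosome 3 at 121723537 to 121735048. It ran from 6.32 to 9.23 CPM in Sham, from 4.54 to 11.3 CPM in I/R and from 7.45 to 9.58 CPM with ML264. The I/R libraries held both the lowest and the highest value of the 12. The fold change was 0.10 ± 0.21 for I/R against Sham, with an interval of -0.35 to 0.56 (edgeR, adjusted p = 0.821), so a rise of the size seen for Plaur lies outside it. It was 0.02 ± 0.21 with ML264 against I/R (adjusted p = 0.984).

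Tfpi, the inhibitor of the tissue factor complex, lies on chromosome 2 at 84432855 to 84476775 on the minus strand. It ran from 50.9 to 71.5 CPM in Sham, from 54.0 to 77.3 CPM in I/R and from 55.5 to 79.1 CPM with ML264. The 3 ranges overlapped almost fully. Its fold change was 0.23 ± 0.14 for I/R against Sham (edgeR, adjusted p = 0.347) and -0.04 ± 0.14 for I/R + ML264 against I/R, with an interval of -0.33 to 0.25 (adjusted p = 0.946).

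Of the endothelial protein C pathway genes, Thbd lies on chromosome 2 at 148404466 to 148408188 on the minus strand. It was at 20.2, 13.2, 16.6 and 22.3 CPM in Sham 1 to 4 and at 23.9, 30.8, 20.8 and 33.2 CPM in I/R 1 to 4. In I/R + ML264 1 to 4 it was at 27.2, 25.7, 15.5 and 25.0 CPM. I/R 3 lay below Sham 4, and I/R + ML264 3 lay within the Sham range. The fold change in I/R against Sham was 0.59 ± 0.21 (edgeR, adjusted p = 0.103), which was not called, while DESeq2 called it (adjusted p = 0.0402). With ML264 against I/R it was -0.22 ± 0.20 (adjusted p = 0.759).

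Procr, which presents protein C to the thrombin-thrombomodulin complex, lies on chromosome 2 at 155751117 to 155755471 and was near the floor of detection. It had 9, 8, 3 and 2 counts in Sham 1 to 4, 7, 14, 13 and 23 counts in I/R 1 to 4, and 8, 38, 7 and 6 counts in I/R + ML264 1 to 4. The ML264 sum of 59 counts came mostly from library 2, and the Sham and I/R sums were 22 and 57. The fold change was 1.35 ± 0.66 for I/R against Sham, with an interval of -0.05 to 2.75 (edgeR, adjusted p = 0.231). For I/R + ML264 against I/R it was -0.07 ± 0.60 with all libraries (adjusted p = 0.982) and -0.98 without I/R + ML264 library 2 (adjusted p = 0.541). Against Sham, ML264 gave 1.28 ± 0.66 (adjusted p = 0.429), and 0.36 without that library (adjusted p = 0.919). Differences in Procr smaller than these intervals were not detectable at this depth.

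The table gives estimates per transcript, which could not be used to compare isoforms, and this was not particular to these genes. Among 6611 genes with at least 100 counts in every library, the leading transcript was the same in all 12 libraries for 0.0908%. Whether transcript labels line up between libraries was not tested. Thbs1 has a pair of transcripts with counts, and the leading one held 97.9 to 100% of its counts in each library but was not the same one in all libraries. For F3, each of its 4 transcripts led in at least 1 library. Over 28 transcripts of the members and 84 exact two-sided permutation tests of transcript shares, the smallest p was 0.0286, the smallest that 4 libraries against 4 can give, and the smallest adjusted p was 0.9882. An unadjusted p under 0.05 was reached in 2 of the 84. Because the leading transcript also changed within groups, these tests cannot decide whether isoforms differed between groups. Gene sums do not depend on how counts were divided among transcripts of 1 gene. At most 2.68% of the 31-base words of any member, the value for Thbs1, occur in transcripts of other genes.

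Around the members, 74 other genes of these pathways were listed, and 56 of them were tested. In I/R against Sham, 6 were called by edgeR (10.7%, against 7.74% of all genes), 5 higher and 1 lower, with a median log2 fold change of 0.05. DESeq2 called 8 of the list, against 10.0% of all genes, and limma voom called 7, against 9.01%. Between I/R + ML264 and I/R, edgeR, DESeq2 and limma voom called none, against 0.0502%, 0.951% and 0.0564% of all genes. The unadjusted p by edgeR was under 0.05 for 6 of the 56, against 10.4% of all genes. Between I/R + ML264 and Sham, edgeR and limma voom called none, against 0.288% and 0.169% of all genes. DESeq2 called 2, against 2.26%. The unadjusted p by edgeR was under 0.05 for 11 of the 56, against 13% of all genes.

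None of the 11 tested coagulation factors and cofactors of 20, and none of the 8 tested natural anticoagulants of 10, was called in I/R against Sham (edgeR). No gene of the former list and none of the latter reached an unadjusted p under 0.05, and their median log2 fold changes were -0.04 and 0.04. Of the 4 protease-activated receptors listed, F2r (PAR1), through which thrombin activates cells, rose from 24.7 ± 1.99 to 42.3 ± 4.90 CPM (SD, n = 4), by 0.77 ± 0.12 (edgeR, adjusted p = 0.0017). F2r was called in all 25 alternatives. With ML264 it averaged 31.1 ± 5.92 CPM, -0.44 ± 0.12 against I/R (adjusted p = 0.191), which was not called.

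Of 15 genes listed for the plasminogen system, 11 were tested, with 1 higher and 1 lower after I/R. The lower one, Masp1, is not a plasminogen activator, inhibitor or receptor. S100a10, a partner of annexin A2 at the site where plasminogen and Plat bind the cell surface, rose from 1.39 ± 0.386 to 2.89 ± 1.08 CPM (SD, n = 4), by 1.05 ± 0.30 (edgeR, adjusted p = 0.0387). That call was lost without any 1 of the 4 Sham libraries, I/R 3, I/R 4 or I/R + ML264 4. Masp1, a serine protease of the lectin pathway of complement that can cleave fibrinogen, fell from 6.21 ± 1.39 to 3.17 ± 0.665 CPM (SD, n = 4), by -0.97 ± 0.23 (adjusted p = 0.0188). Its call was lost without Sham 1 (adjusted p = 0.0528) or I/R 4 (adjusted p = 0.0623). With ML264, S100a10 was at 1.92 ± 0.552 CPM and Masp1 at 4.57 ± 1.42 CPM (SD, n = 4), and neither differed from I/R by the test.

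Among 15 tested partners of Vwf and Thbs1 of 18, Selp was the gene called after I/R. It encodes P-selectin, which is stored with von Willebrand factor in endothelial Weibel-Palade bodies and in platelets. Selp rose from 0.218 ± 0.188 to 4.50 ± 2.97 CPM (SD, n = 4), by 4.31 ± 0.82 (edgeR, adjusted p = 0.0118), and was at 1.27 ± 1.09 CPM with ML264 (-1.80 against I/R, adjusted p = 0.377). Of its 31-base words, 12.5% occur in transcripts of other genes. All 7 endothelial inhibitors of platelets were tested and 2 rose. Entpd1 (CD39), which removes ADP from the endothelial surface, rose from 15.4 ± 0.966 to 24.5 ± 3.82 CPM (SD, n = 4), by 0.67 ± 0.14 (adjusted p = 0.00862). Klf4, a transcription factor that in endothelium promotes expression of Thbd and nitric oxide synthase, rose from 9.01 ± 4.0 to 20.5 ± 2.07 CPM (SD, n = 4), by 1.19 ± 0.25 (adjusted p = 0.0135). With ML264 they were at 19.2 ± 3.78 and 18.7 ± 3.30 CPM (SD, n = 4). With Y-linked transcripts as a covariate the calls of Entpd1 (adjusted p = 0.0552), Masp1 (adjusted p = 0.0812) and S100a10 were lost, and with Arntl as a covariate those of Selp (adjusted p = 0.0597) and S100a10. Within the 8 libraries with Y-linked transcripts, Entpd1 (adjusted p = 0.0933), Klf4 (adjusted p = 0.129), Masp1 (adjusted p = 0.124) and S100a10 were not called.

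**Figure D3:**
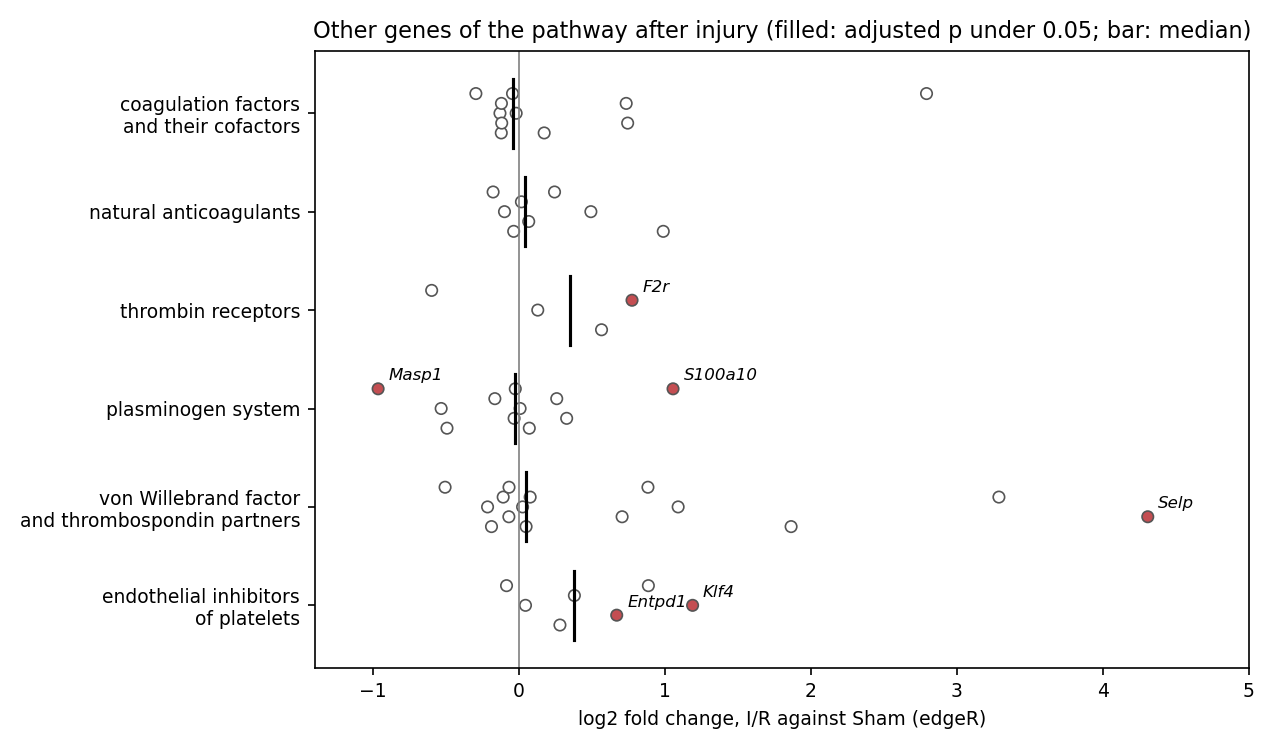
Log2 fold change in I/R against Sham of each tested gene in 6 pathway lists (points, edgeR; filled: adjusted p under 0.05, with the gene's symbol; bar: median of the list). The 6 filled points are F2r, S100a10, Masp1, Selp, Entpd1 and Klf4, and the list medians lie between -0.04 and 0.38. The list labelled thrombin receptors holds the protease-activated receptors.

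Markers of other cells that make some of these proteins differed between libraries too. Neutrophils, which carry the urokinase receptor, had a summed level over 10 markers of 4.83 to 7.30 CPM in Sham, with 4 to 6 of the 10 at 0 counts. The sum was 9.01 to 21.0 CPM in I/R. I/R + ML264 1 to 4 had sums of 5.04, 21.9, 6.43 and 21.0 CPM. Plaur in those ML264 libraries was higher in libraries 2 and 4 than in 1 and 3, as the neutrophil sum was. In ML264 1 and 3 the neutrophil sum lay within the Sham range, and Plaur was at 3.23 and 2.73 CPM, above every Sham library. ML264 4 and I/R 4 both had a neutrophil sum of 21.0 CPM, with Plaur at 5.95 and 12.7 CPM. Of the 5 neutrophil markers tested, 1, Clec4d, was called higher in I/R against Sham (log2 4.21, edgeR, adjusted p = 0.021). The unadjusted p by edgeR was under 0.05 for 3 of the 5, against 23.2% of all genes. Their median log2 fold change was 3.56. Most of the Sham sum came from Cxcr2, at 4.555 ± 0.669 CPM in Sham and 6.46 ± 2.36 CPM in I/R (SD, n = 4). Cxcr2 was not called (edgeR, adjusted p = 0.392). In ML264 1 and 3 it was at 3.62 and 5.26 CPM, most of the neutrophil sums there. S100a8 had 0 counts in every Sham library. Among 8 monocyte and macrophage markers, Cd14 was called higher and Adgre1 lower, and the median log2 fold change was -0.14. The part of neutrophil or monocyte RNA in the Plaur difference was not tested.

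Platelet markers, 8 genes of which 6 were tested and none called by edgeR (1 at an unadjusted p under 0.05), summed to 20.4 CPM in Sham 1 and at most 6.01 CPM in Sham 2 to 4. Sham 1 was also the Sham library with the highest Thbs1. The sum was 173 CPM in I/R 4 and 123 CPM in I/R + ML264 4, and between 4.19 and 32.4 CPM in the other 6 injured libraries. Thbs1 was at 101 CPM in I/R 4, the highest of all libraries, and at 72.2 CPM in I/R + ML264 1, where the platelet sum was 4.19 CPM. The part of platelet RNA in the Thbs1 values was not tested. The endothelial sum over 10 genes was 518 to 605 CPM in Sham, 432 to 507 CPM in I/R and 439 to 546 CPM with ML264. Its part in the values of Thbd, Procr, Vwf, Tfpi and Plat was not tested. Mesothelial markers, 4 genes of which 2 were tested, summed to 2.86 to 4.52 CPM in Sham, 7.54 to 13.1 CPM in I/R and 5.14 to 14.3 CPM with ML264, so Sham lay below both injured groups. One of them, Wt1, was called higher in I/R against Sham (log2 1.76, edgeR, adjusted p = 0.0122). The other tested marker, Upk3b, went the other way and was not called (log2 -1.565, edgeR, adjusted p = 0.333). Most of the sums came from Wt1, at 2.95 ± 0.834 CPM in Sham and 9.90 ± 1.82 CPM in I/R (SD, n = 4). The part of mesothelial RNA in the members' values was not tested. Hepatocyte markers summed to at most 0.549 CPM in any library.

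**Figure D4:**
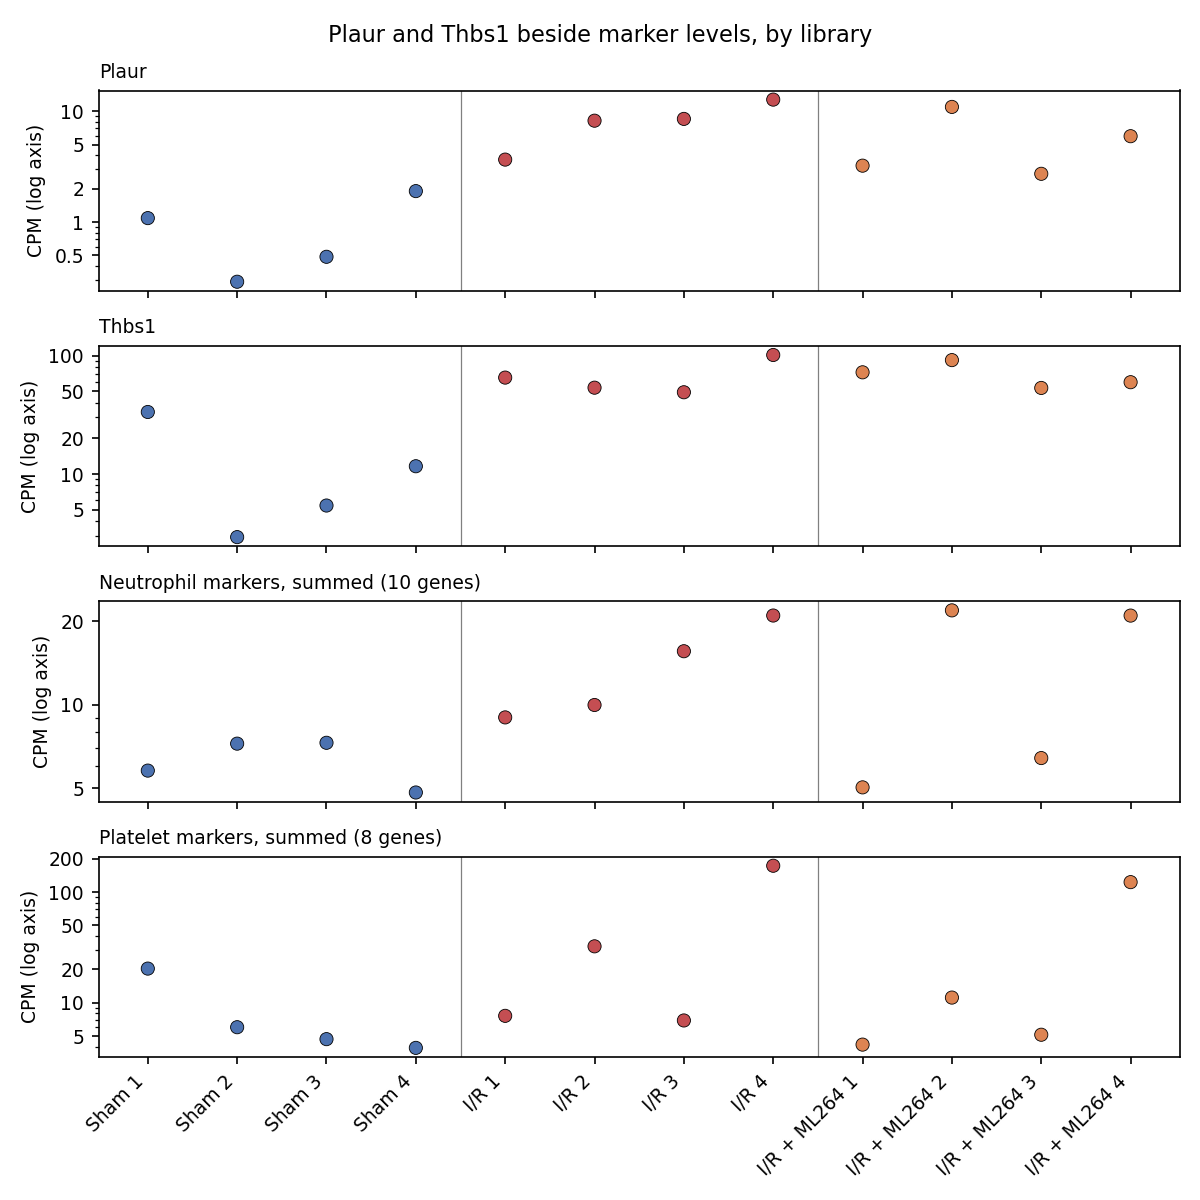
Plaur, Thbs1 and the summed levels of 10 neutrophil and 8 platelet markers in each of the 12 libraries (CPM, log axes, coloured by group). The platelet sum is highest in I/R 4 and I/R + ML264 4, and the neutrophil sum and Plaur are both higher in I/R + ML264 2 and 4 than in 1 and 3. In I/R + ML264 1 and 3, Plaur is above every Sham library and the neutrophil sum, mostly Cxcr2, is within the Sham range. The part of neutrophil RNA in Plaur was not tested.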

How the data were processed

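The authors deposited 1 table of unnormalized estimated counts, by transcript, for 12 libraries of frozen mouse heart. Per the labels' protocols, TRIzol was used for the RNA and Nextera XT, which does not mark strand, for the libraries. FastQC and kallisto were used with GRCm38 (mm10), per the submitters' processing notes; versions and annotation: not given in the sources used here. Of the deposited values, 45.6% were not whole numbers, and 0 rows lacked a gene name.

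Transcripts were summed per symbol and rounded. No library pair held identical values, and the chi-square statistic per gene between libraries of a group was 7.76 to 75.8, above counting noise. Genes passing filterByExpr (minimum 10 counts) were fitted in 1 model over the 3 groups by edgeR's quasi-likelihood test (version 4.0.16 under R 4.3.3) with TMM factors and a robust spread, adjusted over all 15952 genes by Benjamini-Hochberg. The script was tested on simulated data. Transcript estimates were not interpreted: among 6611 genes with at least 100 counts in every library, the leading transcript was the same in all 12 libraries for 0.0908%. Alternatives were DESeq2 1.42.0, limma voom 3.58.1, other factors and filters, covariates, a replicate block and leaving out each library.

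Named were all 9 members, called genes of the pathway lists (at most 5 per list and comparison), and the 3 genes most like a called member, with log2 CPM of at least 1 and no predicted names. The members, lists and markers were chosen with earlier results of these data known. Coordinates are from GENCODE M21 and promoters from RefSeq (GRCm38.p6). Windows were found for F3, Tfpi, Procr and Plaur. Other regulators of these pathways were not analysed here.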

Additional observations from a re-analysis of the deposited data

Results flagged for a closer look

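Over 27 group and gene combinations of the 9 members, 2 values lay apart from the other libraries of their group by Dixon's 95% limit for 4 libraries, where chance flags about 1 in 20. Both were in I/R + ML264 library 2. Procr was at 1.227 CPM there, against 0.2646 to 0.2838 CPM in the other 3 ML264 libraries, a gap of 0.98 of the range. Plau was at 0.3874 CPM there, against 1.191 to 1.285 CPM in the other 3, a gap of 0.895 of the range. This library also held the highest Plaur of its group, and its part in the ML264 values of Procr is given by the fits with and without it.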

How the results depend on the processing

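The number of members called in I/R against Sham was 1 by edgeR (7.74% of all genes), 4 with DESeq2 (10.0%) and 3 with limma voom (9.01%). It was 2 with no filter on low counts, a non-robust spread, or only the 2 groups compared. Those fits in turn called 666, 746 and 751 of all genes higher and 471, 500 and 622 lower. The main edgeR fit called 730 and 505. It was 0 with either covariate (Y-linked transcripts, Arntl). Calls over all genes fell too, to 322 higher and 134 lower with Y-linked transcripts and 380 and 256 with Arntl. Leaving out each library gave 0 to 2, with 0 without Sham 2, Sham 3 or I/R 4. Without these libraries in turn, 433, 419 and 450 of all genes were called higher and 305, 240 and 244 lower. In the 8 libraries with Y-linked transcripts, an alternative chosen after seeing the data, it was 2. There, 391 of all genes were called higher and 162 lower. In I/R + ML264 against Sham the number was 0 by edgeR (0.288% of all genes) and 2 with DESeq2 (2.26%). It was 0 to 1 without each library, the 1 being Thbs1 without Sham 1. That fit called 68 of all genes higher and 9 lower. In I/R + ML264 against I/R it was 0 under all alternatives run. In that comparison edgeR called 0.0502% of all genes and DESeq2 0.951%.

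Plaur kept its direction under all 25 alternatives and its call under 20. Of the comparisons of single members that were not called, 608 alternative values kept sign and side, 17 passed the threshold and 30 changed sign. With Arntl as a covariate the log2 value of I/R against Sham was -0.306 for F3 and -0.078 for Vwf, that of ML264 against I/R was -0.013 for Thbs1, and that of ML264 against Sham was -0.285 for F3. For Vwf, ML264 against Sham gave 0.021 with limma voom and 0.056 with Y-linked transcripts as a covariate. In the 8 libraries with Y-linked transcripts (added after seeing the data) ML264 against I/R gave -0.233 for F3, and ML264 against Sham gave 0.129 for Vwf and -0.124 for Plat. In the other 4, ML264 against I/R gave 0.447 for Procr and -0.018 for Thbs1. Without each library, ranges that crossed 0 were, for I/R against Sham, -0.106 to 0.302 for F3. For ML264 against I/R they were -0.178 to 0.229 for F3, -0.144 to 0.043 for Tfpi, -0.982 to 0.237 for Procr and -0.12 to 0.307 for Thbs1. For ML264 against Sham they were -0.159 to 0.15 for Vwf and -0.078 to 0.218 for Plat. The cause of these changes was not tested.

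With the replicate number as a block, 1 member was called in I/R against Sham, Plaur (3.15, adjusted p = 0.0266), and none in the other comparisons. After subtraction of each gene's group mean from its log2 CPM, same-numbered libraries of different groups correlated at -0.111 to 0.097. The numbers were therefore not taken as pairs. Over all genes the block gave 622 higher and 387 lower in I/R against Sham, against 730 and 505 without it, and upper-quartile factors gave 620 and 676. In I/R + ML264 against I/R the block gave 1 and 0, against 2 and 6, and in I/R + ML264 against Sham 17 and 2, against 41 and 5. Procr (57 to 59 counts per injured group) and Plau (80 to 190 counts per group) are limited by depth.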

Other observations

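Of the 10 endothelial markers, 1 rose and 2 fell in I/R against Sham (edgeR), with a median log2 fold change of -0.21. Esam, a junction protein of endothelium and platelets, rose from 18.7 ± 4.25 to 30.7 ± 2.22 CPM (SD, n = 4), by 0.72 ± 0.14 (adjusted p = 0.00739). Kdr, the main VEGF receptor of endothelium, fell from 155.5 ± 29.1 to 90.3 ± 14.5 CPM (SD, n = 4), by -0.78 ± 0.19 (adjusted p = 0.0323), and Tek, the angiopoietin receptor, fell from 65.9 ± 3.28 to 48.1 ± 6.70 CPM (SD, n = 4), by -0.45 ± 0.11 (adjusted p = 0.0221). With ML264, Esam was at 23.9 ± 3.54, Kdr at 114.7 ± 27.2 and Tek at 56.5 ± 9.19 CPM (SD, n = 4), and none of the 10 was called against I/R by edgeR, with 2 at an unadjusted p under 0.05. The calls of Kdr and Tek were lost without several single libraries of Sham or I/R, and all 3 were lost in the 8 libraries with Y-linked transcripts. Pecam1, by contrast, was at 80.6 ± 3.68, 83.2 ± 3.83 and 85.4 ± 12.2 CPM in Sham, I/R and I/R + ML264 (SD, n = 4).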
